A study of Mus musculus with 11 samples.

Results

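A set of 33 genes of amino acid supply and of protein folding in the endoplasmic reticulum (ER) were followed through mouse neuroblastomas treated with CBL0137, panobinostat or both drugs. The 33 members were picked by gene symbol from a fixed list. They comprise 11 genes of amino acid synthesis and tRNA charging, 3 amino acid transporters, 6 stress transcription factors and feedback genes, 2 genes of unfolded protein sensors with Xbp1, and 10 ER chaperones and ER degradation genes. All 33 were found among the 24411 genes of the table and all 33 passed the filter of at least 1 TPM (transcripts scaled to a library total of 1000000) in at least 2 libraries, as did 15497 genes in all.

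The tumours arose in homozygous Th-MYCN+/+ mice, in which the tyrosine hydroxylase promoter drives human MYCN in the sympathetic lineage, and every group carried this transgene. Mice with a tumour of about 5 mm received 1 dose, and the tumour was taken 16 hours later. The groups were vehicle given intraperitoneally (n = 3), CBL0137 at 40 mg/kg given intravenously (n = 3), panobinostat at 5 mg/kg given intraperitoneally (n = 2, replicates 1 and 3, with replicate 2 not analysed here) and the combination of these doses (n = 3). CBL0137 belongs to the curaxins, DNA-binding compounds that hold the FACT histone chaperone in chromatin, and panobinostat is a histone deacetylase inhibitor. Each library is total RNA of 1 bulk tumour after removal of ribosomal RNA. The ages and sexes of the mice are not given in the sources used here.

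Cells answer a shortage of amino acids, or unfolded protein in the ER, by phosphorylating the initiation factor eIF2, which lowers general translation and favours translation of the transcription factor ATF4. ATF4 then raises genes for amino acid synthesis, transport and tRNA charging, and, with CHOP (gene Ddit3), a set of feedback genes. Unfolded protein in the ER also activates IRE1 (gene Ern1), which splices the Xbp1 mRNA, and ATF6, and these raise chaperones and degradation factors. In tumours driven by MYCN, MYCN itself is known to raise serine and one-carbon genes together with ATF4.

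After the combination, 30 of the 33 members passed the test against vehicle, 18 higher and 12 lower, and the members split by role. Of all 15497 genes tested, 35.9% rose and 30.1% fell in this comparison, so that a change as such was common. The 11 genes of amino acid synthesis and charging had a median log2 change of -1.07, with 10 fallen and 1 risen. The 10 ER chaperone and degradation genes had a median of 0.80, with 9 risen and none fallen, and Ern1, Atf6 and Xbp1 all rose. The median over all genes tested was 0.08. Because these are bulk tumours, fewer cells of a type and less RNA per cell cannot be told apart.

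**Figure D1:**
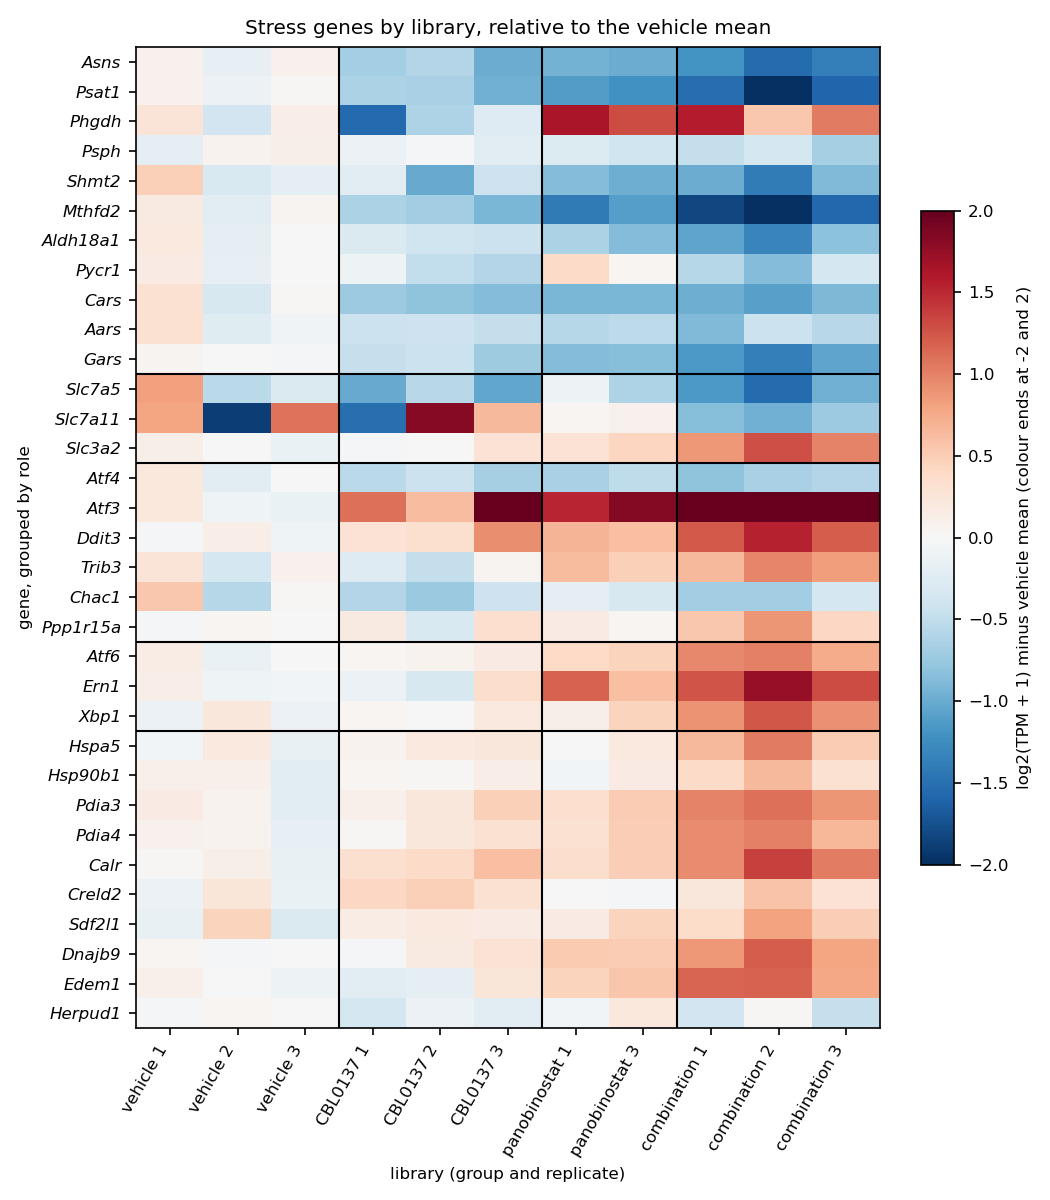
Log2(TPM + 1) of each of the 33 members in each of the 11 libraries, as the difference from the vehicle mean, with members in rows by role and libraries in columns by group. The upper block, amino acid synthesis and charging, lies on the low side in the treated libraries except for Phgdh, which is high after panobinostat and the combination, and Pycr1, which is high after panobinostat. Most genes of this block are lowest on average after the combination, while Cars and Aars differ little between the treated groups. The ER block lies on the high side in the 3 combination libraries except for Herpud1.

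Each library was scaled by the authors to a total of 1000000 TPM, so the values are shares and the number of reads behind them is unknown. Between 12856 and 14747 genes reached 1 TPM in a library. The small RNA gene Rmrp took 8.37% to 13.8% of the TPM and the histone cluster genes took 1.26% to 9.60%. The genes of the catecholamine enzymes Th and Dbh, which mark the sympathoadrenal lineage, were detected in every library, at 99.6 to 416 TPM and 14.8 to 107 TPM. Single libraries held RNA of another tissue: adrenal cortex markers summed to 5242 TPM in combination replicate 2, skeletal muscle markers to 8047 TPM in panobinostat replicate 3, kidney markers to 414 TPM in vehicle replicate 2, and B and plasma cell markers to 196 TPM in CBL0137 replicate 3. Skeletal muscle markers also summed to 519.96 TPM in CBL0137 replicate 2 and 616 TPM in combination replicate 1, the latter with 65.9 TPM of B and plasma cell markers. An alternative chosen after seeing the data left out the first 4 of these libraries, which left panobinostat with 1 library. Most calls after the combination were kept, with a few lost and a few gained. After CBL0137 some calls were lost and other members passed instead, and after panobinostat some calls were lost. That alternative kept the other 2 libraries, so it did not remove all RNA of other tissue.

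The summed markers of stromal and immune cells moved with the groups. Macrophage markers (9 of 10 in the table, none at 0) summed to 295 to 344 TPM after vehicle, 734 to 1473 after CBL0137, 2010 to 2641 after panobinostat and 3462 to 5120 after the combination. Fibroblast markers (8 of 8, none at 0) summed to 228 to 404, 502 to 1320, 2832 to 3174 and 3392 to 5059 TPM in the same order. Neutrophil markers (6 of 6, none at 0) summed to 3.08 to 18.6, 32.6 to 75.9, 188 to 359.7 and 446 to 619 TPM. The order of the groups was the same in these 3 lists. Endothelial markers (7 of 7, none at 0) summed to 29.8 to 55.3, 65.4 to 167, 180.0 to 205 and 332 to 623 TPM. The sum of Th and Dbh was 114 to 228 TPM after vehicle, 339.7 to 449 after CBL0137, 177 to 269 after panobinostat and 203 to 521 after the combination. Many members, ER chaperones among them, are expressed by these cell types too, and the part of these cells in the results below was not tested.

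**Figure D2:**
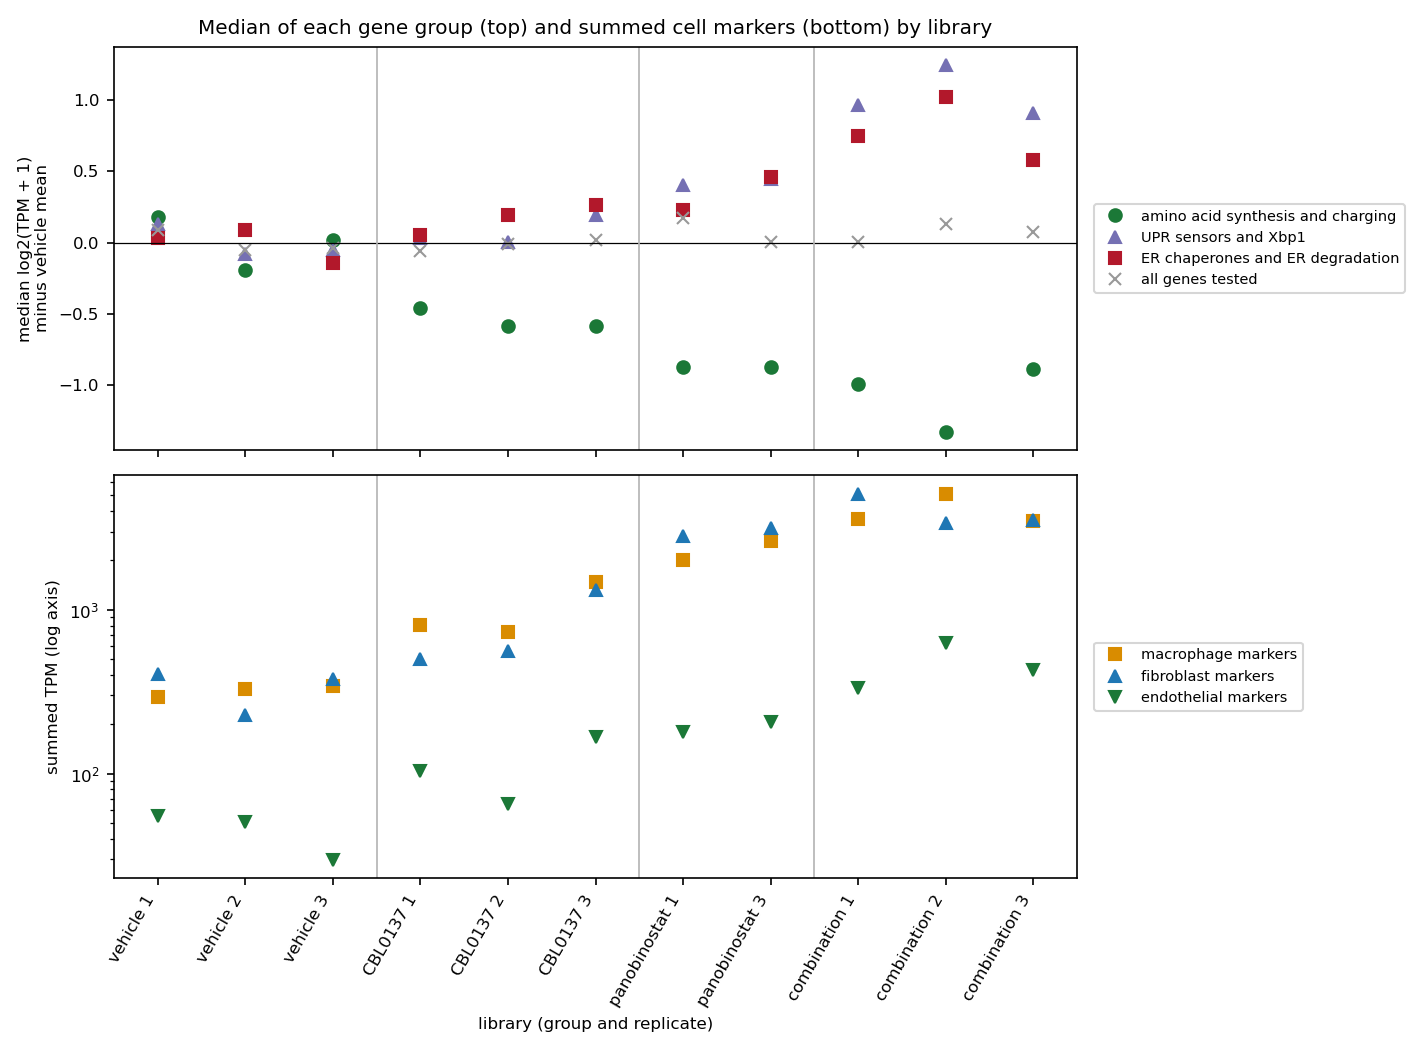
Upper panel, the median over each gene group, and over all genes tested, of log2(TPM + 1) minus the vehicle mean in each library; lower panel, the summed TPM of 3 marker lists in the same libraries on a log axis. The amino acid group lies at -0.46 to -0.59 after CBL0137 and at -0.89 to -1.32 after the combination, the ER group at 0.58 to 1.02 after the combination, and the macrophage and fibroblast sums are highest in the combination libraries.

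Atf4, on chromosome 15 (80255184 to 80257541, mm10), encodes the factor at the head of the amino acid branch. It was at 202, 148 and 176 TPM after vehicle, 119.7, 129 and 110.0 after CBL0137, 111 and 122 after panobinostat, and 99.0, 110.2 and 115 after the combination. Every treated library lay below every vehicle library, and the treated groups overlapped one another. Atf4 fell by 0.54 ± 0.12 (log2 change ± SE, adjusted p = 0.0305 by limma) after CBL0137, by 0.58 ± 0.14 (adjusted p = 0.00742) after panobinostat and by 0.68 ± 0.12 (adjusted p = 0.000659) after the combination. ATF4 is controlled mainly in translation, and the protein was not measured.

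Atf3 and Ddit3, which ATF4 raises under stress, went the other way. Atf3, a bZIP factor and early stress gene, was at 7.72, 6.12 and 5.91 TPM after vehicle, 15.3, 10.5 and 30.6 after CBL0137, 20.7 and 25.8 after panobinostat, and 57.9, 56.9 and 75.7 after the combination. All treated libraries were above all vehicle libraries, and the combination libraries were above all others. Its rise was 1.26 ± 0.31 after CBL0137 (adjusted p = 0.0418), 1.68 ± 0.34 after panobinostat (adjusted p = 0.00412) and 3.08 ± 0.31 after the combination (adjusted p = 2.23e-05). The call after CBL0137 was lost without any of 8 libraries in turn, with an adjusted p of up to 0.14 without vehicle replicate 3.

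Ddit3 encodes CHOP, a factor linked to cell death under long ER stress, and was at 12.8, 14.6 and 12.4 TPM after vehicle, 16.3, 16.9 and 26.0 after CBL0137, 21.9 and 20.7 after panobinostat, and 32.4, 40.6 and 31.9 after the combination. The combination libraries stood above all others, and the CBL0137 and panobinostat libraries lay between them and vehicle. Ddit3 rose by 0.65 ± 0.20 after panobinostat (adjusted p = 0.0245) and 1.33 ± 0.18 after the combination (adjusted p = 0.000107), while the difference after CBL0137 was 0.51 ± 0.18 (adjusted p = 0.113). In the mm10 annotation a second gene model of the same name overlaps Ddit3 on chromosome 10, so reads may have been divided between them.

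Of the feedback genes, Ppp1r15a, which encodes the GADD34 subunit that brings a phosphatase to eIF2, was at 11.8, 12.4 and 12.1 TPM after vehicle, 13.8, 9.62 and 15.5 after CBL0137, 13.6 and 12.5 after panobinostat, and 18.1, 23.1 and 16.4 after the combination. It rose by 0.61 ± 0.18 after the combination (adjusted p = 0.0118), and its combination libraries lay above all others. Trib3, a pseudokinase that restrains ATF4, was at 1.35, 0.530 and 1.08 TPM after vehicle, 0.630, 0.400 and 1.04 after CBL0137, 2.02 and 1.73 after panobinostat, and 2.08, 2.84 and 2.48 after the combination. These are low levels, for which the log2(TPM + 1) scale understates a change, and the rise after the combination was 0.82 ± 0.23 (adjusted p = 0.00862). It did not hold after quantile normalization, where the change was -0.0014, and the Ppp1r15a call did not hold after that scaling either. Neither the Trib3 nor the Ppp1r15a call held without the 4 libraries left out for RNA of another tissue. Chac1, a glutathione-degrading enzyme and a sensitive target of ATF4, was at 4.98, 1.79 and 3.21 TPM after vehicle, 1.75, 1.47 and 2.10 after CBL0137, 2.60 and 2.32 after panobinostat, and 1.54, 1.56 and 2.22 after the combination. Its groups overlapped and it passed no test against vehicle, with -0.58 ± 0.27 after the combination (adjusted p = 0.0763).

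The 6 genes of this role thus held 4 that rose and 1 that fell after the combination, 2 that rose and 1 that fell after panobinostat, and 1 each way after CBL0137. The background was 25.5% of genes risen and 16.9% fallen after panobinostat, and 4.99% risen and 1.13% fallen after CBL0137.

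Promoter windows of the members were searched for the exact letters of 1 motif of each branch, which finds neither variants nor sites outside the window. A window of 300 bases, from 250 before to 50 after the start, was held by RefSeq (GRCm38.p6) for 30 of the 33 members, and Cars, Slc7a5 and Atf6 had no entry. The amino acid response motif TGATGNAA, which C/EBP-ATF dimers bind, was searched on both strands and was in the windows of 9 of the 30: Asns, Pycr1, Aars, Gars, Slc7a11, Atf3, Trib3, Chac1 and Herpud1. Of all 27025 genes with a window, 4.51% held it (3.97% of 32851 windows). These 9 included genes that fell after the combination, genes that rose and genes that passed no test, as shown by Asns and Gars (fell), Atf3 and Trib3 (rose) and Chac1 (no call). The motif is in capitals, and appears as its reverse complement where it lies on the other strand.
Asns chr6:7693213-7693244 (minus strand): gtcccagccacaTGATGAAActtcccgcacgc
Gars chr6:55037959-55037990 (plus strand): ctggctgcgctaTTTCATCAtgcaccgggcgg
Atf3 chr1:191183424-191183455 (minus strand): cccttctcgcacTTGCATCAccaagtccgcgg
Trib3 chr2:152344027-152344058 (minus strand): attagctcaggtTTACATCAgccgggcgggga
Chac1 chr2:119351037-119351068 (plus strand): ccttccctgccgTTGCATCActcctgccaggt

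Asns, on chromosome 6 (7675169 to 7693254, mm10), encodes asparagine synthetase, the textbook ATF4 target. It was at 107, 90.0 and 107 TPM after vehicle, 62.6, 66.8 and 49.95 after CBL0137, 51.8 and 50.02 after panobinostat, and 43.4, 34.0 and 38.6 after the combination. No vehicle library overlapped a treated one, and the combination libraries were below all others. Asns fell by 0.76 ± 0.13 after CBL0137 (adjusted p = 0.0103), by 0.97 ± 0.15 after panobinostat (adjusted p = 0.0011) and by 1.37 ± 0.13 after the combination (adjusted p = 1.94e-05).

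Serine synthesis runs through Phgdh, Psat1 and Psph, which act in that order, and the 3 genes did not move together. Psat1, the aminotransferase, was at 195, 169.9 and 187 TPM after vehicle, 118, 117 and 94.0 after CBL0137, 84.5 and 78.8 after panobinostat, and 63.4, 44.2 and 60.2 after the combination. As for Asns, the combination libraries were lowest and vehicle highest, with no overlap. Psat1 fell by 0.75 ± 0.14 (adjusted p = 0.0158), 1.16 ± 0.16 (adjusted p = 0.000802) and 1.71 ± 0.14 (adjusted p = 1.07e-05) after CBL0137, panobinostat and the combination.

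Phgdh, the first and rate-limiting enzyme of the same path, was at 8.29, 4.96 and 7.59 TPM after vehicle, 1.66, 4.08 and 5.52 after CBL0137, 23.3 and 18.2 after panobinostat, and 22.1, 10.4 and 15.01 after the combination. The 5 libraries that received panobinostat, alone or combined, lay above the 6 that did not. Phgdh rose by 1.47 ± 0.40 after panobinostat (adjusted p = 0.0144) and by 1.05 ± 0.35 after the combination (adjusted p = 0.0238), and differed by -0.81 ± 0.35 after CBL0137 (adjusted p = 0.194). The combination call was lost without vehicle replicate 2 or combination replicate 1, with an adjusted p of up to 0.0938, and after quantile normalization (log2 change 0.58), and the panobinostat call without panobinostat replicate 1, with 0.0812. Phgdh was the only member of its group to rise after either treatment. Its level is low beside that of Psat1 on the per-length TPM scale, at 6.95 ± 1.76 against 184 ± 12.9 TPM (mean ± SD, n = 3) after vehicle. Schwann cell markers (5 of 5) were also higher in the panobinostat and combination libraries, at 24.0 to 55.2 TPM against 4.59 to 15.2 in the others, and their part in this rise was not tested.

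Psph, the phosphatase that ends the path, was at 17.0, 20.8 and 21.4 TPM after vehicle, 18.1, 19.3 and 16.8 after CBL0137, 16.1 and 14.6 after panobinostat, and 13.9, 15.2 and 12.1 after the combination. It fell by 0.49 ± 0.13 after the combination (adjusted p = 0.00723), and the groups after the single drugs did not pass.

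Mitochondrial one-carbon metabolism takes up the serine through Shmt2 and Mthfd2. Mthfd2, the folate dehydrogenase of growing and tumour cells, was at 78.2, 58.7 and 71.5 TPM after vehicle, 44.2, 42.2 and 36.2 after CBL0137, 25.3 and 31.4 after panobinostat, and 18.9, 11.97 and 22.6 after the combination. All combination libraries were below all others and all treated ones below vehicle. Mthfd2 had the furthest fall of the members after the combination, by 1.94 ± 0.21 (adjusted p = 3.26e-05), against 1.26 ± 0.23 after panobinostat (adjusted p = 0.00258), and did not pass after CBL0137 (-0.74 ± 0.21, adjusted p = 0.0652). Shmt2, the serine hydroxymethyltransferase, was at 72.0, 41.8 and 45.7 TPM after vehicle, 44.2, 25.2 and 38.4 after CBL0137, 27.8 and 25.9 after panobinostat, and 25.5, 18.9 and 27.4 after the combination. It fell by 0.92 ± 0.28 (adjusted p = 0.0228) and 1.09 ± 0.25 (adjusted p = 0.0029) after panobinostat and the combination.

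Proline synthesis is represented by Aldh18a1, which makes the first intermediate from glutamate, and Pycr1, which makes proline. Aldh18a1 was at 83.6, 63.6 and 71.8 TPM after vehicle, 59.0, 54.9 and 53.4 after CBL0137, 46.7 and 39.1 after panobinostat, and 34.3, 28.4 and 40.5 after the combination. Vehicle libraries were above all treated ones, and it fell by 0.75 ± 0.16 after panobinostat (adjusted p = 0.00513) and 1.07 ± 0.15 after the combination (adjusted p = 0.000121). Pycr1 was low and variable, at 4.39, 3.30 and 3.86 TPM after vehicle, 3.52, 2.43 and 2.23 after CBL0137, 5.27 and 3.96 after panobinostat, and 2.25, 1.65 and 2.77 after the combination. It fell by 0.60 ± 0.21 after the combination (adjusted p = 0.0278). The call was lost without any of vehicle replicates 1 and 3 and combination replicates 1 and 2 in turn (adjusted p up to 0.0962). It was also lost without the 4 libraries left out for RNA of another tissue.

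Among the members are 3 aminoacyl-tRNA synthetases, which load tRNA with its amino acid. Gars, for glycine, was at 239.7, 229.9 and 225 TPM after vehicle, 168, 172 and 141 after CBL0137, 126 and 127 after panobinostat, and 104, 88.9 and 111 after the combination. The vehicle libraries lay above the CBL0137 ones and the combination libraries below all others. Gars fell after all 3, with log2 changes of -0.53 ± 0.11 (adjusted p = 0.0185), -0.86 ± 0.12 (adjusted p = 0.000781) and -1.19 ± 0.11 (adjusted p = 1.32e-05) after CBL0137, panobinostat and the combination. Cars, for cysteine, was at 44.7, 28.6 and 36.6 TPM after vehicle, 21.5, 20.1 and 19.4 after CBL0137, 18.6 and 18.6 after panobinostat, and 17.9, 16.5 and 18.9 after the combination. It fell by a like size after each treatment, by 0.80 ± 0.15 (adjusted p = 0.0137), 0.92 ± 0.17 (adjusted p = 0.00221) and 0.98 ± 0.15 (adjusted p = 0.000233), and the combination libraries overlapped the panobinostat group but lay below the CBL0137 libraries. Aars, for alanine, was at 84.0, 57.0 and 64.4 TPM after vehicle, 49.8, 50.2 and 48.4 after CBL0137, 45.4 and 46.9 after panobinostat, and 36.1, 50.1 and 45.7 after the combination. It fell by 0.54 ± 0.17 after panobinostat (adjusted p = 0.028) and 0.62 ± 0.15 after the combination (adjusted p = 0.00463).

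In this group 8 of 11 fell and 1 rose after panobinostat, with a median of -0.86, and 4 of 11 fell after CBL0137 (Asns, Psat1, Cars and Gars), with a median of -0.55. The medians over all genes tested were 0.10 and -0.01. Of these genes, 25.5% rose and 16.9% fell after panobinostat, and 4.99% rose and 1.13% fell after CBL0137. All 11 members of this group had a change below 0 after CBL0137. With Atf4 and Atf3, the 4 that fell made up the 6 members that passed after CBL0137. Without vehicle replicate 3 none of the 6 passed, and without vehicle replicate 1 or CBL0137 replicate 3 only 2 members did.

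**Figure D3:**
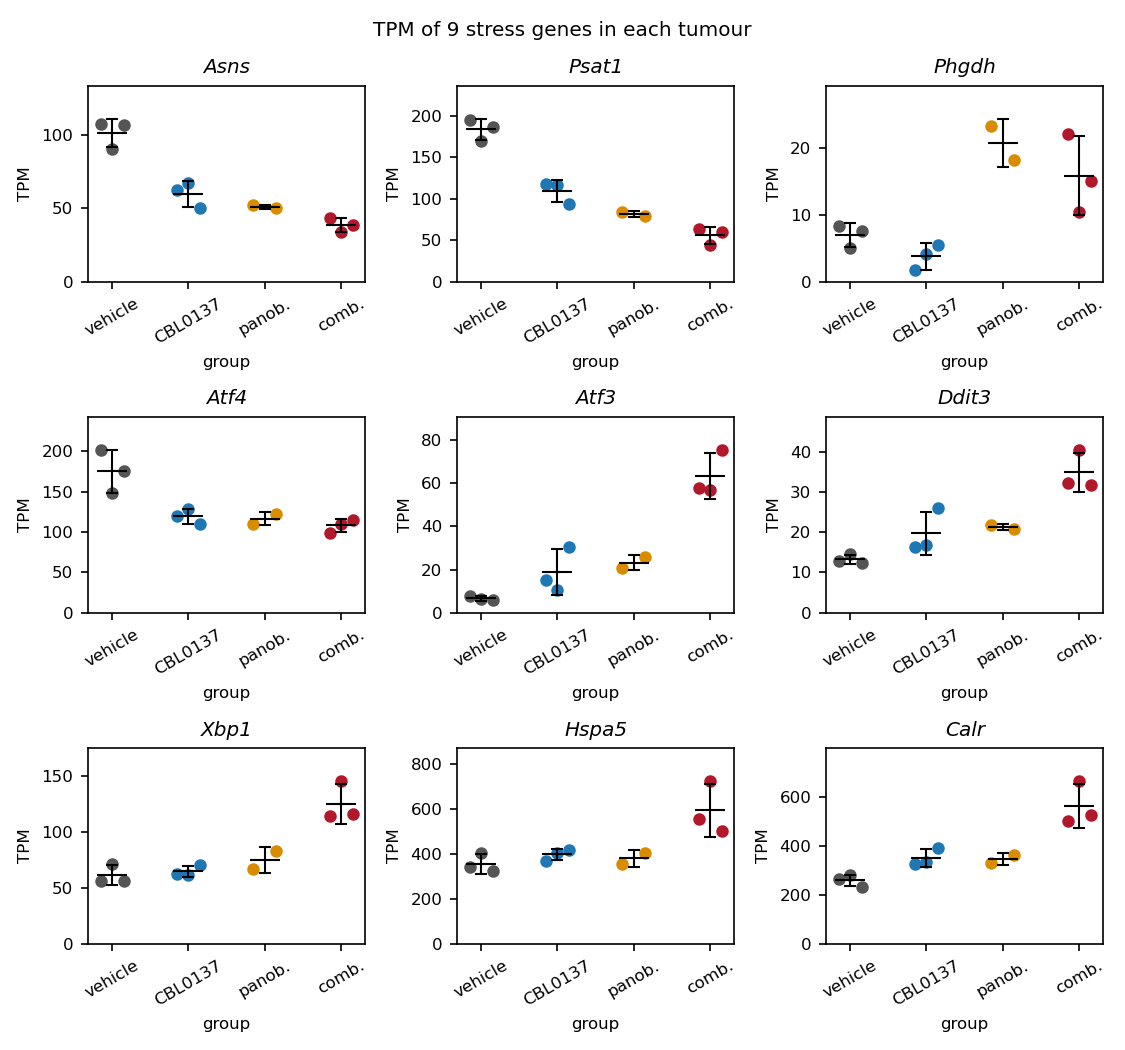
TPM of 9 members in each tumour by group on linear axes from 0, with points for libraries, horizontal bars for group means and whiskers for 1 SD (n = 3, and n = 2 for panobinostat). Asns and Psat1 step down from vehicle to the combination and Atf4 lies lower in all treated groups, while Phgdh is high only in the panobinostat and combination groups and Atf3, Ddit3, Xbp1, Hspa5 and Calr are highest in the combination.

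The 3 transporter genes divided. Slc3a2, the heavy chain shared by several amino acid exchangers, was at 43.4, 40.0 and 36.4 TPM after vehicle, 39.0, 39.6 and 48.8 after CBL0137, 49.0 and 53.8 after panobinostat, and 73.8, 98.4 and 80.3 after the combination. The combination libraries were above all others, and Slc3a2 rose by 1.05 ± 0.13 (adjusted p = 7.91e-05), with 0.36 ± 0.15 after panobinostat (adjusted p = 0.0758). Slc7a5 encodes LAT1, the light chain that carries large neutral amino acids together with the Slc3a2 product, and was at 35.1, 13.1 and 15.7 TPM after vehicle, 9.19, 12.9 and 8.93 after CBL0137, 18.1 and 12.3 after panobinostat, and 8.16, 5.99 and 9.52 after the combination. It fell by 1.22 ± 0.33 after the combination (adjusted p = 0.00833), while its heavy chain rose. Slc7a11, the cystine carrier xCT, which also pairs with Slc3a2, was at 7.71, 0.370 and 9.64 TPM after vehicle, 0.760, 16.8 and 6.91 after CBL0137, 4.18 and 4.31 after panobinostat, and 1.78, 1.58 and 2.03 after the combination. The spread within vehicle and within CBL0137 was wider than any difference between groups, and Slc7a11 passed no test.

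Both sensor genes among the members, Ern1 and Atf6, rose after panobinostat and after the combination, and neither passed after CBL0137. A further ER stress sensor, the eIF2 kinase PERK (gene Eif2ak3), is not a member. It was counted with the eIF2 kinases below and was not called as risen after any treatment. Ern1 encodes IRE1 and was at 3.79, 3.14 and 3.23 TPM after vehicle, 3.04, 2.52 and 4.60 after CBL0137, 8.92 and 5.67 after panobinostat, and 9.45, 13.7 and 9.86 after the combination. It rose by 0.89 ± 0.26 after panobinostat (adjusted p = 0.0195) and 1.44 ± 0.23 after the combination (adjusted p = 0.000352), from low levels. Atf6, the membrane-bound factor cut in the Golgi, was at 16.9, 13.7 and 15.03 TPM after vehicle, 15.6, 15.9 and 17.2 after CBL0137, 20.4 and 21.1 after panobinostat, and 30.6, 31.7 and 26.0 after the combination. It rose by 0.42 ± 0.13 (adjusted p = 0.0262) and 0.90 ± 0.12 (adjusted p = 9.62e-05) after the same treatments.

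Xbp1, on chromosome 11 (5520659 to 5525893, mm10), encodes the factor whose mRNA IRE1 splices, and was at 56.3, 71.4 and 56.2 TPM after vehicle, 62.5, 61.3 and 69.9 after CBL0137, 66.3 and 82.9 after panobinostat, and 114, 146 and 115 after the combination. The vehicle, CBL0137 and panobinostat libraries overlapped, and the combination libraries stood apart above them. Xbp1 rose by 1.02 ± 0.14 after the combination (adjusted p = 0.000129), with 0.08 ± 0.14 after CBL0137 (adjusted p = 0.761) and 0.28 ± 0.16 after panobinostat (adjusted p = 0.173). A gene-level value does not tell spliced from unspliced Xbp1 mRNA.

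One form of the ER stress element, a CCAAT box followed after 9 bases by CCACG and bound by ATF6 with NF-Y, was in the windows of 4 of the 30 members with one. All 4, Hspa5, Hsp90b1, Calr and Creld2, were among the 10 ER members. They rose after the combination, but so did 9 of the 10 ER members and 35.9% of all genes tested, so a rise did not set the 4 apart. Of all genes with a window, 0.137% held these letters (0.119% of windows). The element is shown in capitals, again as its reverse complement where it lies on the other strand. No other member's window held these letters, and among those without them Xbp1, Pdia3 and Edem1 also rose after the combination.
Hspa5 chr2:34772013-34772055 (plus strand): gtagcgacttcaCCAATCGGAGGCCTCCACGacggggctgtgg
Hsp90b1 chr10:86705626-86705668 (minus strand): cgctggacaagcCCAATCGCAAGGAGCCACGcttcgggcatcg
Hsp90b1 chr10:86705521-86705563 (minus strand): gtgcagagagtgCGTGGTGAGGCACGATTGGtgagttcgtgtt
Calr chr8:84847063-84847105 (minus strand): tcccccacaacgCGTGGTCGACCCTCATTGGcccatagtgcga
Creld2 chr15:88819508-88819550 (plus strand): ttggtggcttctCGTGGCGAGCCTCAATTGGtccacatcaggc

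Hspa5, on chromosome 2 (34771970 to 34777547, mm10), encodes BiP, the main ER chaperone and the usual gauge of ER load. It was at 342, 406 and 322 TPM after vehicle, 371, 406 and 417 after CBL0137, 354 and 406 after panobinostat, and 554, 727 and 503 after the combination. The other 3 groups overlapped, and each combination library was above all of them, replicate 2 the furthest. Hspa5 rose by 0.73 ± 0.15 after the combination (adjusted p = 0.00141), against 0.16 ± 0.15 after CBL0137 (adjusted p = 0.524) and 0.10 ± 0.16 after panobinostat (adjusted p = 0.663).

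Calr, calreticulin, which holds glycoproteins during folding, was at 262, 279 and 233 TPM after vehicle, 323, 335 and 389.5 after CBL0137, 327 and 363 after panobinostat, and 499, 665 and 524 after the combination. Vehicle was lowest and the combination highest, with no overlap of either with the other groups. Calr rose by 0.42 ± 0.14 after panobinostat (adjusted p = 0.0394) and 1.11 ± 0.13 after the combination (adjusted p = 4.83e-05), and after CBL0137 the difference was 0.43 ± 0.13 (adjusted p = 0.0763). Hsp90b1, the ER member of the HSP90 family, was at 505, 504 and 405 TPM after vehicle, 484, 476 and 513 after CBL0137, 452 and 527 after panobinostat, and 611, 734 and 578 after the combination. It rose by 0.44 ± 0.12 after the combination (adjusted p = 0.00992).

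The disulfide isomerases Pdia3 and Pdia4 had changes of like size. Pdia3, the partner of calreticulin, was at 163, 152 and 124 TPM after vehicle, 157, 170.4 and 202 after CBL0137, 184 and 208 after panobinostat, and 289, 315 and 268 after the combination. It rose by 0.42 ± 0.15 (adjusted p = 0.0405) and 0.99 ± 0.13 (adjusted p = 0.000103) after panobinostat and the combination. Pdia4 was at 89.4, 88.2 and 75.2 TPM after vehicle, 85.2, 98.7 and 104 after CBL0137, 104 and 118 after panobinostat, and 163, 169.8 and 133 after the combination. Its rises were 0.39 ± 0.14 (adjusted p = 0.0429) and 0.87 ± 0.12 (adjusted p = 0.000164), and in both genes the combination libraries were above all others.

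Dnajb9 (ERdj4), a co-chaperone of BiP and an XBP1 target, was at 19.9, 19.0 and 19.1 TPM after vehicle, 18.8, 22.1 and 23.9 after CBL0137, 28.3 and 27.8 after panobinostat, and 36.0, 46.4 and 34.2 after the combination. It rose by 0.51 ± 0.15 after panobinostat (adjusted p = 0.0193) and 0.96 ± 0.13 after the combination (adjusted p = 0.000138). Edem1, which hands misfolded glycoproteins to degradation, was at 20.2, 18.8 and 17.4 TPM after vehicle, 16.0, 16.4 and 22.3 after CBL0137, 25.9 and 28.0 after panobinostat, and 43.0, 43.7 and 32.6 after the combination. The changes were 0.50 ± 0.17 (adjusted p = 0.0409) and 1.03 ± 0.16 (adjusted p = 0.000228), and again the combination libraries did not overlap the others.

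Creld2 and Sdf2l1, both small stress-induced ER proteins, rose less firmly. Creld2 was at 28.5, 37.0 and 28.2 TPM after vehicle, 41.4, 43.7 and 38.5 after CBL0137, 31.3 and 30.6 after panobinostat, and 36.4, 46.8 and 38.2 after the combination. Sdf2l1 was at 28.3, 43.3 and 25.6 TPM after vehicle, 35.2, 36.3 and 35.7 after CBL0137, 35.5 and 43.4 after panobinostat, and 41.2, 56.0 and 44.7 after the combination. In both the combination overlapped vehicle, the rises were 0.37 ± 0.13 (adjusted p = 0.0317) and 0.56 ± 0.19 (adjusted p = 0.0237), and each call was lost without any of vehicle replicates 1 and 3 and combination replicate 2 (adjusted p up to 0.115 and 0.0988), with trimmed mean of M-values (TMM) factors and after rescaling without small RNA and histone cluster genes. Herpud1, a membrane protein of ER degradation, was at 33.1, 35.0 and 33.6 TPM after vehicle, 26.3, 31.3 and 29.3 after CBL0137, 32.8 and 39.5 after panobinostat, and 25.6, 34.5 and 24.3 after the combination. It was the ER member that passed no test, at -0.27 ± 0.14 after the combination (adjusted p = 0.11).

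No ER member passed after CBL0137 (lowest adjusted p = 0.0763 for Calr, with 2 of 10 at an unadjusted p under 0.05 and 4 of 10 passing with array weights), and 5 of 10 rose after panobinostat, with medians of 0.17 and 0.35. The 5 became 2 with TMM factors or a replicate block, 1 with a constant prior variance, and 0 without vehicle replicate 3 or either panobinostat library, 1 without CBL0137 replicate 2, 2 without vehicle replicate 1, and 3 without vehicle replicate 2 or combination replicate 1. Of all 33 members, 19 passed after panobinostat, 10 higher and 9 lower, where 25.5% of all genes rose and 16.9% fell. Leaving out each of the 11 libraries in turn, 6 of these 19 always passed (Asns, Psat1, Mthfd2, Cars, Gars and Atf3), and the number that passed was 7 without panobinostat replicate 1, 9 without panobinostat replicate 3 and 10 without vehicle replicate 3. After the combination 26 of the 30 always passed, the exceptions being Phgdh, Pycr1, Creld2 and Sdf2l1. Quantile normalization, which moved the median of all genes after the combination from 0.08 to -0.26, gave 14 members risen and 14 fallen, and the ER median was then 0.73 and the amino acid median -1.15. Under quantile normalization the split after panobinostat was 8 risen and 11 fallen.

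**Figure D4:**
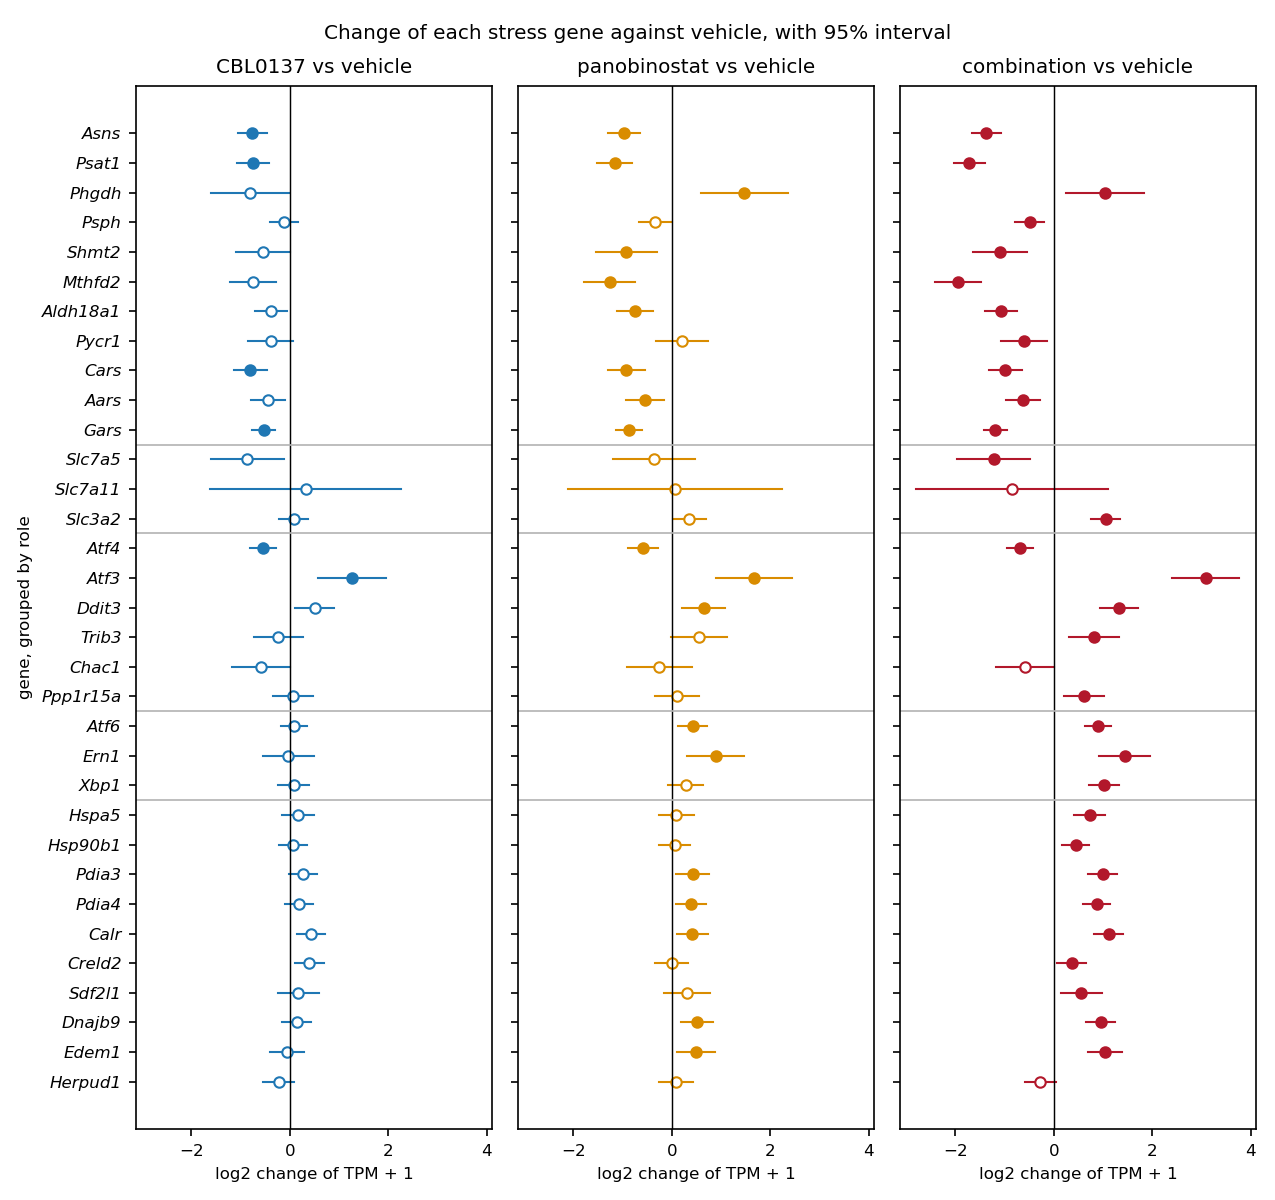
Log2 change against vehicle on the log2(TPM + 1) scale, with its 95% interval from limma, for each of the 33 members after CBL0137, panobinostat and the combination, with filled points where the adjusted p was under 0.05. Most amino acid genes lie left of 0 and most ER genes right of 0, and the combination point is usually the furthest from 0.

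The members were next compared between the treated groups. Against CBL0137 alone, the combination differed in 22 members, 16 higher and 6 lower, where 33.2% of all genes rose and 23.7% fell. The 6 lower ones all belonged to amino acid synthesis and charging (Asns, Psat1, Psph, Mthfd2, Aldh18a1 and Gars), with Mthfd2 the furthest at -1.19 ± 0.21 (adjusted p = 0.00111). Among the 16 higher ones were Phgdh at 1.86 ± 0.35 (adjusted p = 0.00166), Atf3 at 1.82 ± 0.31 (adjusted p = 0.000931), Edem1 at 1.09 ± 0.16 (adjusted p = 0.000443) and Slc3a2 at 0.97 ± 0.13 (adjusted p = 0.000381). Leaving out each of the 11 libraries in turn, 19 of the 22 always passed, the exceptions being Psph, Ppp1r15a and Hsp90b1, and quantile normalization made the split 13 and 9.

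Against panobinostat alone, 7 members were higher and none lower, where 6.24% of all genes rose and 4.3% fell. They were Atf3 at 1.41 ± 0.34 (adjusted p = 0.0351), Xbp1 at 0.74 ± 0.16 (adjusted p = 0.0232), Slc3a2 at 0.69, Calr at 0.69, Hspa5 at 0.63, Pdia3 at 0.57 and Atf6 at 0.48. No amino acid enzyme passed, with Psat1 nearest at -0.55 ± 0.16 (adjusted p = 0.0534), and 5 of 11 had an unadjusted p under 0.05. This comparison rests on 2 panobinostat libraries: without replicate 1 no member passed, without replicate 3 only 1 did, and leaving out each of the 11 libraries gave between 0 and 15. Its split also depended on scaling, with 4 higher and 5 lower after rescaling without small RNA and histone cluster genes, 6 higher and 3 lower after quantile normalization, and 6 higher and 1 lower with TMM factors.

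CBL0137 and panobinostat alone differed in 2 members, where 6.81% of all genes were higher and 12.1% lower after CBL0137. Both were lower after CBL0137, Phgdh with a log2 difference of -2.28 ± 0.40 (adjusted p = 0.0104) and Ern1 with one of -0.92 ± 0.26 (adjusted p = 0.0361). The Phgdh call was lost without panobinostat replicate 3 (adjusted p = 0.0657), and the Ern1 call without any of 6 libraries in turn, with up to 0.2 without panobinostat replicate 1.

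Whether the combination departed from the sum of the 2 drugs was tested by the interaction, the change after both drugs minus the changes after each. None of the 33 members passed, and 0% of all 15497 genes did. At an unadjusted p under 0.05 there were 5 members, namely Cars, Xbp1, Slc3a2, Edem1 and Atf4, and 1631 genes in all. The estimate for Xbp1 was 0.66 ± 0.21 (unadjusted p = 0.0106, adjusted p = 0.372 by limma), and that for Cars was 0.73 ± 0.22 (unadjusted p = 0.00807, adjusted p = 0.372 by limma). Under the alternatives that kept both panobinostat libraries, between 0 and 11 genes passed, none of them members. There were 11 with array weights, 8 without combination replicate 3, 2 without vehicle replicate 2 and 1 without CBL0137 replicate 1. A larger number, none of them members, passed without panobinostat replicate 1, which left panobinostat with 1 library. No member passed without the 4 libraries left out for RNA of another tissue.

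The remaining genes of these pathways were counted from lists of textbook members. Of 17 other cytosolic aminoacyl-tRNA synthetases, 2 fell after CBL0137 (Nars and Tars, named after their values were seen), 15 fell after panobinostat, and 16 fell and 1 rose after the combination, where the median was -0.74. Among all genes, 1.13% fell after CBL0137, 16.9% fell after panobinostat, and 30.1% fell and 35.9% rose after the combination. Farsb fell by 0.87 ± 0.09 (adjusted p = 2.93e-05), Eprs by 0.99 ± 0.10 (adjusted p = 2.95e-05), Yars by 1.07 ± 0.12 (adjusted p = 3.42e-05) and Hars by 0.86 ± 0.10 (adjusted p = 4.01e-05) after the combination. Wars, the one that rose, was picked out after its values were seen, at 0.74 ± 0.15 (adjusted p = 0.00162); this tryptophan enzyme is also an interferon-induced gene.

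Of 11 other serine, one-carbon and proline genes, none passed after CBL0137 (lowest adjusted p = 0.0736 by limma). Of these, 7 had an unadjusted p under 0.05 after CBL0137, as did 3794 of all 15497 genes tested. The median log2 change of the list after CBL0137 was -0.38. In the same list 6 fell after panobinostat and 9 fell after the combination, with none risen. Among all genes, 16.9% fell after panobinostat and 30.1% fell after the combination. Mthfd1, the cytosolic folate enzyme, went from 60.2 ± 8.77 to 17.5 ± 3.55 TPM (mean ± SD, n = 3 each), a fall by 1.73 ± 0.16 (adjusted p = 1.73e-05). Shmt1 fell by 2.37 ± 0.31 (adjusted p = 0.000105), Mthfd1l by 1.64 ± 0.19 (adjusted p = 4.73e-05) and Pycrl by 1.33 ± 0.15 (adjusted p = 4.12e-05).

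Of 20 other known ATF4 targets, 18 were tested, and they went both ways. After CBL0137, 2 rose and 1 fell; after panobinostat, 8 rose and 2 fell; after the combination, 9 rose and 3 fell. Of all genes, 4.99% rose and 1.13% fell after CBL0137, 25.5% and 16.9% after panobinostat, and 35.9% and 30.1% after the combination. Counting both directions, the share of this list that passed after the combination was thus near that of all genes. Cebpb, a bZIP partner of ATF4, rose from 4.18 ± 1.21 to 55.2 ± 7.65 TPM, by 3.46 ± 0.24 (adjusted p = 5.88e-06), and it also rose after CBL0137 (1.35) and panobinostat (2.40). Nupr1, a stress-induced chromatin protein, rose by 3.17 ± 0.34 (adjusted p = 2.96e-05), the secreted stress cytokine Gdf15 by 3.16 ± 0.30 (adjusted p = 1.81e-05) and the translation repressor Eif4ebp1 by 1.43 ± 0.18 (adjusted p = 6.71e-05) after the combination. Cebpb is also high in macrophages, whose summed markers were higher in the same libraries, and their part was not tested.

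Of the 13 genes of eIF2 kinases, phosphatases and the exchange factor eIF2B, 1 rose after each treatment, while none fell after CBL0137, 6 after panobinostat and 5 after the combination. A smaller share of these genes passed after the combination than of all genes, of which 35.9% rose and 30.1% fell. After panobinostat 25.5% of all genes rose and 16.9% fell, and after CBL0137 4.99% rose and 1.13% fell. The one of the 13 that rose was Eif2ak2, which encodes PKR, the eIF2 kinase for double-stranded RNA and an interferon-induced gene. It was at 6.45 ± 0.712 TPM after vehicle, 40.8 ± 17.3 after CBL0137, 13.2 ± 1.10 after panobinostat and 106 ± 31.4 after the combination (mean ± SD, n = 3, 3, 2 and 3). Its rises were 2.42 ± 0.29 (adjusted p = 0.00115), 0.93 ± 0.32 (adjusted p = 0.0387) and 3.79 ± 0.29 (adjusted p = 7.36e-06). The eIF2B subunit genes Eif2b1, Eif2b4 and Eif2b5 fell by 1.12 ± 0.09, 1.15 ± 0.10 and 0.88 ± 0.10 after the combination (adjusted p = 1.11e-05, 1.48e-05 and 4.06e-05).

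Of 15 other ER chaperones and folding enzymes, none passed after CBL0137 (4 at an unadjusted p under 0.05), 7 rose after panobinostat and 10 rose after the combination, with none fallen. Among all genes, 25.5% rose and 16.9% fell after panobinostat, and 35.9% rose and 30.1% fell after the combination. Counting both directions, the share of this list that passed was near that of all genes. All of its calls were rises, and the share that rose was larger than that of all genes after both treatments. The median log2 change after the combination was 0.75, against 0.08 over all genes tested. The BiP co-chaperone Dnajb11 rose by 0.96 ± 0.10 (adjusted p = 2.85e-05), and the isomerases P4hb, Pdia5 and Pdia6 by 1.08 ± 0.12, 1.72 ± 0.20 and 1.18 ± 0.14 (adjusted p = 3.82e-05, 4.83e-05 and 5.81e-05). Of 16 genes of ER degradation and translocation, 1 rose after CBL0137 (Sec61b, named after its values were seen), 1 rose and 2 fell after panobinostat, and 7 rose and 2 fell after the combination. Of all genes, 4.99% rose and 1.13% fell after CBL0137, so the share of the list that rose after it was near that of all genes. After both panobinostat and the combination a smaller share of the list passed than of all genes. Os9, a lectin that sorts glycoproteins for degradation, rose by 1.65 ± 0.15 (adjusted p = 1.31e-05), Edem2 by 0.94 ± 0.13 (adjusted p = 0.00015) and Derl1 by 0.73 ± 0.13 (adjusted p = 0.000709). Mbtps2, the protease that cuts ATF6, fell by 0.89 ± 0.13 (adjusted p = 0.000173), while Atf6 itself rose.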

How the data were processed

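Total RNA of flash-frozen tumours was sequenced as stranded libraries after removal of ribosomal RNA, per the labels' protocols, and STAR, SAMtools, RSEM and mm10 are named in the submitters' processing notes. Their versions, settings and annotation are not given in the sources used here. The authors deposited TPM for 24411 genes in 11 libraries, each summing to 1000000, so depth is unknown and no counting interval was given. In 27 rows a symbol had turned into a date; none is a member.

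Values were tested as log2(TPM + 1), which understates the change of low genes, for the 15497 genes that reached 1 TPM in 2 or more libraries. One limma 3.58.1 fit in R 4.3.3 (eBayes with trend, 7 residual degrees of freedom) held the 4 group means, and 7 contrasts were tested 2-sided with Benjamini-Hochberg adjustment over all tested genes at 0.05. Replicates are separate mice per the labels. The fit was tested on simulated data before use. The members and lists were chosen with earlier results of these data known; no test of a list as a whole was made, and the motif searches are descriptions. Every member is described, and of each other list up to 4 called genes with the lowest adjusted p are named. The treatment comparisons share the vehicle libraries. Alternatives were the pseudocount (0.1 and 5), the filter (none and 5 TPM), TMM factors, quantile normalization, rescaling without 1313 small RNA and 68 histone cluster genes, array weights, a fit of the compared groups alone, a replicate block, a constant prior variance, and each library left out. Where this left panobinostat with 1 library, it was assumed to vary like the others. Coordinates are from the GENCODE annotation of mm10, and promoter windows from RefSeq on GRCm38.p6.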

Additional observations from a re-analysis of the deposited data

How the results depend on the processing

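The number of members that passed stayed within 1.5 times the reported value for the combination against vehicle (30) and against CBL0137 (22) under every alternative run. Leaving out each library gave 27 to 30 and 20 to 23 for these, 7 to 20 for panobinostat against vehicle, 0 to 8 for CBL0137 against vehicle, 0 to 15 for the combination against panobinostat, 0 to 7 for CBL0137 against panobinostat, and 0 for the interaction. Array weights gave 16 for CBL0137 against vehicle. For the combination against panobinostat, the count was 11 with a pseudocount of 5, 4 with no filter and 1 with only the groups compared. For CBL0137 against panobinostat it was 1 with no filter, 4 after rescaling, 9 with array weights and 0 with only the groups compared. Both counts also moved without the 4 libraries left out for RNA of another tissue. That alternative was chosen after seeing the data and left panobinostat with 1 library. The same-numbered libraries did not deviate together (15 pairs, correlation -0.26 to 0.19, median -0.081). Deviations from a group mean sum to 0 within the group, so these correlations cannot settle whether the numbers pair the mice. With a replicate block the counts against vehicle were 4, 13 and 30 for CBL0137, panobinostat and the combination. They were 22 and 1 for the combination against CBL0137 and panobinostat, 1 for CBL0137 against panobinostat and 0 for the interaction. The change of Trib3 after the combination was -0.0014 after quantile normalization (adjusted p = 0.996 by limma). Quantile normalization moved the share of called genes that rose from 60.24% to 38.23% after panobinostat and from 54.41% to 38.39% after the combination. The cause of these shifts was not tested. Groups of 2 or 3 mice and the unknown depth limit the precision of low genes such as Trib3, Slc7a11 and Phgdh.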
